A study of Drosophila melanogaster with 6 samples.

Results

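The 46 genes described here are testis and sperm genes of Drosophila melanogaster, chosen by name from the 17558 genes of the deposited table. They are the genes whose FlyBase symbol begins with tomboy or with Mst or S-Lap followed by a digit, the protamine genes ProtA and ProtB, and dj, djl, betaTub85D, loopin-1, ocn, janB, fzo, twe, sowah, bb8 and hale. The gene hale was taken to be hale-bopp from general knowledge, since the name tables give only its symbol. Adult male flies were compared in 2 groups of 3 RNA sequencing libraries each, all collected 12 h after an injection of the bacterium Micrococcus luteus. Flies with extra CR46018, a long non-coding RNA, had the genotype Gal80ts; Tub> CR46018, and control flies had the genotype Gal80ts; Tub-Gal4/P{CaryP}attP40. Both groups therefore carried a temperature-sensitive Gal80 and a driver from the tubulin gene, expressed throughout the body, and both were infected. By its title, the study asked how CR46018 acts on the Toll immune response. The labels name neither a tissue nor whether each library had its own set of flies, so the p-values below reflect only how far these libraries scatter, which may be technical. No uninfected flies are among the samples.

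Sperm are made in the testis from germ cells that pass through mitotic divisions, a long spermatocyte stage, meiosis and a final stage of elongation. Most of the genes needed for elongation are transcribed before meiosis, under testis-specific relatives of the general transcription machinery, and their RNA is stored. During elongation the mitochondria fuse into a large body that later runs along the tail, histones are exchanged for protamine-like proteins, and an axoneme of tubulin grows with the cell. Of the members, the Mst57D genes stand outside this program, since they are known as transcripts of the accessory gland, which makes seminal fluid. The name Mst stands for male-specific transcript and does not tell the organs apart.

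Levels are in FPKM (read fragments divided by gene length and by the depth of the library), taken as deposited by the authors. The libraries held 15084193 to 17396893 recovered whole reads, of which 225044 to 258273 fell on the members. The overexpressed RNA itself, asRNA:CR46018, had 3, 1 and 0 reads in overexpression libraries 1 to 3 and 0 in each control library, where a count of 0 allows up to 0.0971 FPKM, so its level does not separate the groups. Genes were tested with limma on log2(FPKM + 1), which understates the change of low genes, at a Benjamini-Hochberg adjusted p of 0.05 over the 12251 genes averaging 1 FPKM or more. Fold changes are overexpression minus control on that log2 scale. In bulk RNA, fewer cells of a type and less RNA per cell cannot be told apart, and overexpression cannot be told apart from another genetic difference between the groups.

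Of the 46 members, 42 passed the filter on low values, and 26 of them lay in the highest 10% of all tested genes by mean FPKM. Those that did not pass were Mst84Da and the Y-linked copies Mst77Y-13, Mst77Y-8Psi and Mst77Y-9. Of the 42 tested members, 2 rose in overexpressing flies, Mst27D and Mst77Y-4, which is 4.76% against 2.45% of all tested genes. A single member fell, Mst57Da, which is 2.38% against 6.31% of all tested genes. Together 3 of 42 were called, against 8.76% of all tested genes. The other 39 members did not pass, and 9 of them had an unadjusted p below 0.05. Counting the called members too, 12 of 42 were below it, against 23.5% of all tested genes. On recovered reads, voom called 2 members higher and 2 lower, against 3.82% higher and 8.09% lower of all 11792 genes it tested. The counts by role and by list below are to be read beside these shares over all genes. The 95% intervals of the fold differences of these 39 members all lay between 0.719 and 1.43. The median log2 fold change was 0.039 over the tested members and -0.0024 over all tested genes.

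The libraries of the 2 groups did not overlap in 6 members that were higher in overexpressing flies, or 14.3% against 12.2% of all tested genes. They did not overlap in 4 members that were lower there, or 9.52% against 16.2% of all tested genes. In either direction these were 10 members, or 23.8% against 28.4%. When every library was scaled to the same FPKM total, the median was 0.135 over the members and 0.082 over all tested genes. In that fit 4 members were higher and 1 lower, namely Mst27D, Mst77Y-4, betaTub85D and S-Lap5 against Mst57Da. Over all tested genes, 826 were higher and 484 lower in it, against 300 higher and 773 lower as deposited. Of the 42 tested members, 25 kept the same sign under every alternative in which they were tested and 17 did not. There were 14 alternatives, or 13 for Mst77Y-4 and Mst77Y-16Psi, which a filter at 5 FPKM left out.

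**Figure D1:**
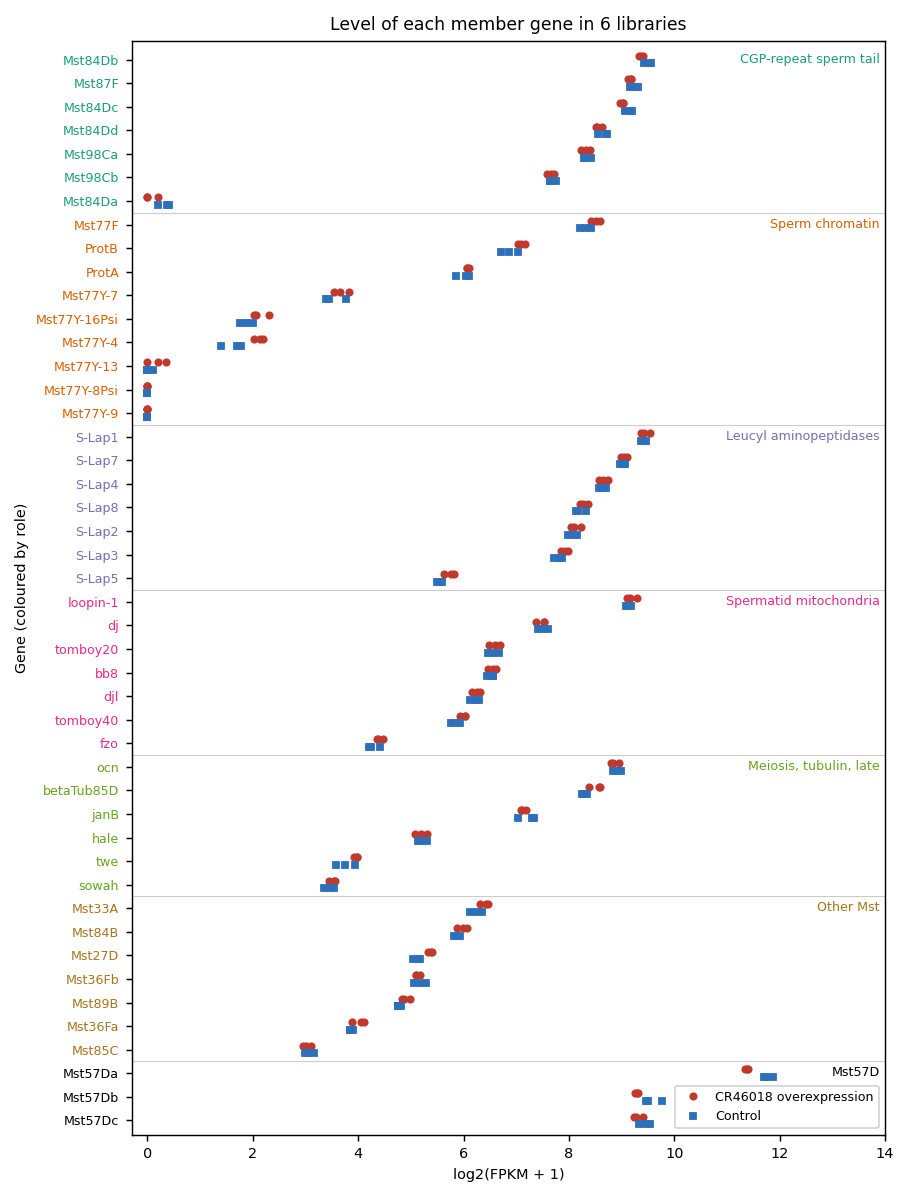
Level of each of the 46 members as log2(FPKM + 1) in every library, with overexpression libraries as circles above control libraries as squares, ordered by role and mean level. Most genes lie at the same height in both groups, Mst57Da is visibly lower in overexpressing flies, and the lowest rows are copies at or near 0.

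Mst27D was the testis gene with the smallest p among those that rose. In spermatids its protein is reported to tie nuclear pores to the microtubules that shape the nucleus. It measured 40.8, 41.1 and 39.1 FPKM in overexpression libraries 1 to 3, against 34.5, 32.0 and 35.1 FPKM in control libraries 1 to 3. Every overexpression library lay above every control library. The log2 fold change was 0.24 ± 0.06 (SE, n = 3 each; limma adjusted p = 0.0337). The call was lost without any of 5 of the 6 libraries, with adjusted p of 0.0828 and 0.0955 without control replicates 1 and 2 and of 0.0859, 0.0912 and 0.0749 without overexpression replicates 1, 2 and 3. Leaving out control replicate 3 kept it, at an adjusted p of 0.0475. The call was also lost with replicate numbers as a block (0.0882). Over the 14 alternatives the adjusted p ran from 0.0146 to 0.0955. The direction was the same under every alternative. Of its 1574 bp of exons, 81 bp overlap exons of Mnn1 on the opposite strand, and whether strand was used in counting is not known here.

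Mst57Da, which encodes a seminal peptide of the accessory gland, was the member with the highest level and the smallest p. It measured 2712, 2593 and 2663 FPKM in overexpression libraries 1 to 3, against 3458, 3348 and 3762 FPKM in control libraries 1 to 3. All 3 overexpression libraries were below all 3 control libraries, and they lay closer to each other. The log2 fold change was -0.41 ± 0.07 (SE, n = 3 each; limma adjusted p = 0.00961), a fold of 0.755 with a 95% interval from 0.678 to 0.840. The call held under all 14 alternatives, with adjusted p from 0.000374 to 0.0459.

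The other Mst57D genes lie beside it on chromosome 3R, between 25829321 and 25831899 in dm6. Mst57Db measured 630, 627 and 612 FPKM in overexpression libraries 1 to 3, against 699, 720 and 867 FPKM in control libraries 1 to 3. The groups did not overlap, but control replicate 3 stood well above the other control libraries. The log2 fold change was -0.28 ± 0.08 (limma adjusted p = 0.0788), and voom on recovered reads called it lower (adjusted p = 0.0208, range over 14 alternatives 0.0208 to 0.313). Mst57Dc averaged 631.8 ± 39.7 FPKM in overexpressing flies and 698 ± 49.8 FPKM in control flies (SD, n = 3 each; adjusted p = 0.285), and its groups overlapped. The sum of the Mst57D genes lay between 3879 and 3956 FPKM in overexpression libraries and between 4713 and 5336 FPKM in control libraries.

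Of 28 other names listed for the accessory gland and ejaculatory duct, 27 were matched to genes and 26 were tested. This list gives context for the Mst57D genes, though it takes in more than the accessory gland. In it, 1 gene rose and 2 fell by limma, with a median log2 fold change of -0.15, and 22 of the 26 values were negative. The limma shares over all tested genes were 2.45% higher and 6.31% lower. An unadjusted p below 0.05 was found for 12 of the 26, against 23.5% of all tested genes. The groups did not overlap in 9 genes that were lower and 2 that were higher in overexpressing flies, against 16.2% and 12.2% of all tested genes. By voom, 2 were higher and 7 lower, against 3.82% higher and 8.09% lower of all genes. The gene aqrs, needed in the sex peptide network of seminal fluid, averaged 63.0 ± 1.01 FPKM in overexpressing flies and 78.0 ± 5.30 FPKM in control flies (SD, n = 3 each; limma adjusted p = 0.0206). The lectin gene lectin-46Cb of the same network averaged 108.5 ± 2.76 FPKM in overexpressing flies and 92.3 ± 2.42 FPKM in control flies (adjusted p = 0.0242). Both calls depended on single libraries and on the block. That of aqrs was lost without control replicates 1 and 3 (adjusted p = 0.0687 and 0.052), without overexpression replicates 1 and 3 (0.0607 and 0.0689), with the same total in every library (0.0711) and with the replicate block (0.0512). That of lectin-46Cb was lost without any of the control replicates (0.0519 to 0.0765), without overexpression replicates 2 and 3 (0.0675 and 0.0963) and with the replicate block (0.077). The other gene that fell was Acp54A1, named after its values were seen. Rescaled to a common total, the list median was -0.056, against 0.082 over all tested genes.

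**Figure D2:**
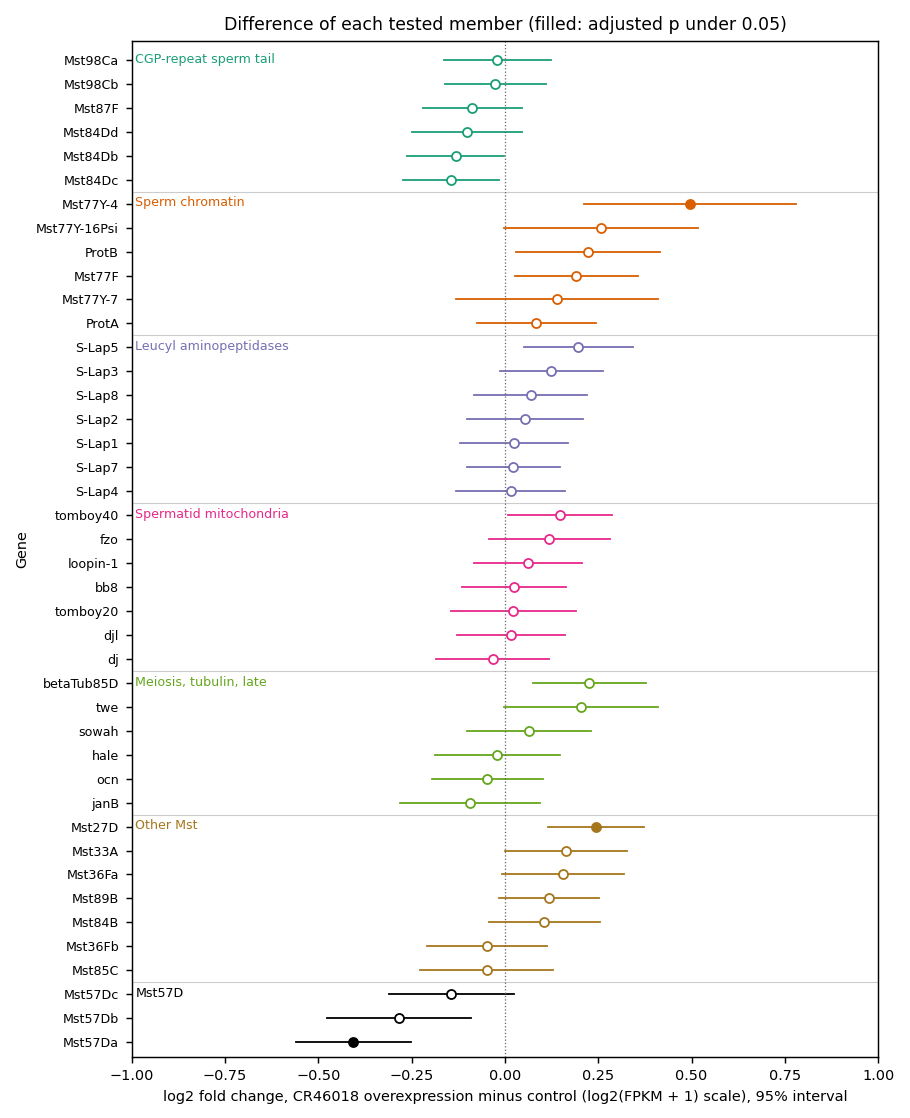
Log2 fold change of the 42 tested members, overexpression minus control, with 95% intervals, by role; filled points passed an adjusted p of 0.05. The filled points are Mst77Y-4 and Mst27D on the higher side and Mst57Da on the lower side, and most other intervals include 0.

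The sperm tail genes of the CGP family encode small proteins built of Cys-Gly-Pro repeats that line the elongating tail. All 4 Mst84D genes lie together on 3R between 7363307 and 7366262, and Mst98Ca and Mst98Cb are neighbours between 28291338 and 28293863. Of the 7 genes, 6 were tested and 0 passed by limma, while 2 had an unadjusted p below 0.05 and voom called 0. All 6 log2 fold changes were below 0 as deposited, from -0.14 to -0.02, with a median of -0.094. Rescaled to a common total, Mst87F, Mst98Ca and Mst98Cb turned positive. The median was then 0.0017, against 0.082 over all tested genes. With quantile normalization only Mst84Dc stayed negative, and the median was 0.036, against 0.016 over all tested genes.

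Mst84Db, the gene of this family with the highest level, measured 659, 645 and 677 FPKM in overexpression libraries 1 to 3, against 738, 685 and 749 FPKM in control libraries 1 to 3. The groups did not overlap, though overexpression replicate 3 came close to control replicate 2. The limma adjusted p was 0.209 for a log2 fold change of -0.13 ± 0.06 (SE, n = 3 each). Mst84Dc averaged 511 ± 12.6 FPKM in overexpressing flies and 565 ± 27.1 FPKM in control flies (adjusted p = 0.164), also without overlap. Mst84Dd, Mst87F, Mst98Ca and Mst98Cb had overlapping groups, with adjusted p from 0.401 to 0.887. Mst98Ca averaged 318 ± 18.7 FPKM in overexpressing flies and 322 ± 14.3 FPKM in control flies.

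Mst84Da, the fourth gene of the same cluster, was almost silent. It had 0, 0 and 1 reads in overexpression libraries 1 to 3, against 1, 2 and 2 reads in control libraries 1 to 3. The other genes of the cluster had 9296 to 16777 reads per group. Of its 358 bp of exons, 269 bp overlap exons of MstProx on the opposite strand, the largest such overlap among the members. How reads in overlapping exons were counted is not known here.

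The sperm chromatin genes encode the proteins that replace histones in the sperm head. ProtA and ProtB are neighbouring protamine-like genes on 2L between 14879050 and 14883721, and Mst77F encodes a linker-histone-like protein that also acts on spermatid shape. Of 9 genes, 6 were tested, 1 rose and 0 fell by limma, and 0 were called by voom. All 6 fold changes were above 0, also under every alternative in which each was tested, from 0.084 to 0.50 with a median of 0.21 as deposited. The summed level lay between 556.9 and 605.8 FPKM in overexpression libraries and between 469.6 and 555.6 FPKM in control libraries, so that control replicate 3 almost reached the lowest overexpression library.

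Mst77F, the gene of this role with the highest level, measured 342, 384 and 366 FPKM in overexpression libraries 1 to 3, against 319, 294 and 343 FPKM in control libraries 1 to 3. Control replicate 3 lay just above overexpression replicate 1, so the groups overlapped (log2 fold change 0.19 ± 0.07, SE, n = 3 each; limma adjusted p = 0.153). With quantile normalization it passed (adjusted p = 0.0494, range over 14 alternatives 0.0494 to 0.351). ProtB averaged 135.8 ± 6.003 FPKM in overexpressing flies and 116.6 ± 13.4 FPKM in control flies (adjusted p = 0.153). Its control libraries were highest in replicate 3, and ProtB passed when that library was left out (adjusted p = 0.0472, the lowest of 14 alternatives that reached 0.355). ProtA, at a lower level than ProtB on the FPKM scale, averaged 66.7 ± 1.19 FPKM in overexpressing flies and 63.0 ± 5.55 FPKM in control flies (adjusted p = 0.523). The 2 genes are close copies, so how their shared reads were divided is uncertain.

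The Mst77Y genes are Y-linked copies of Mst77F, some of them pseudogenes. They are near-identical to each other, so the share of reads each received is uncertain. Mst77Y-4 measured 3.37, 3.57 and 3.09 FPKM in overexpression libraries 1 to 3, against 1.62, 2.23 and 2.44 FPKM in control libraries 1 to 3. These values stand for 173 reads in the overexpression group and 101 reads in the control group, and the libraries did not overlap. The log2 fold change was 0.50 ± 0.12 (SE, n = 3 each; limma adjusted p = 0.0454). The call was lost with a pseudocount of 0.1 (adjusted p = 0.0501), without the filter (0.0699), with voom (0.0739) and when replicate numbers entered as a block (0.0781). It was also lost without control replicates 1 and 2 (adjusted p = 0.106 and 0.0905) and without overexpression replicates 1, 2 and 3 (adjusted p = 0.107, 0.124 and 0.0939). Over the 13 alternatives in which it was tested, the adjusted p ran from 0.0315 to 0.124.

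The other Mst77Y copies did not pass or were not tested. Mst77Y-7 averaged 11.8 ± 1.30 FPKM in overexpressing flies and 10.7 ± 1.76 FPKM in control flies (SD, n = 3 each; limma adjusted p = 0.532). Mst77Y-16Psi, annotated on an unplaced sequence, averaged 3.39 ± 0.479 FPKM in overexpressing flies and 2.67 ± 0.308 FPKM in control flies (adjusted p = 0.215), without overlap. Mst77Y-13 had 6 reads over the overexpression group and 1 over the control group. Mst77Y-8Psi and Mst77Y-9 had 0 reads in all libraries, which allows up to 0.0766 and 0.0761 FPKM in overexpressing flies and up to 0.0818 and 0.0813 FPKM in control flies, from 3 reads over each group. Such limits cover counting error only.

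The sperm leucyl aminopeptidases, or S-Laps, are among the most abundant proteins of fly sperm and fill the mitochondrial derivatives of the tail. Of 7 genes, 0 passed by limma, while 1 had an unadjusted p below 0.05 and voom called 0. All 7 fold changes were above 0 as deposited, from 0.016 to 0.20 with a median of 0.054, and those of S-Lap1, S-Lap4 and S-Lap7 turned negative in some fits without a single library. S-Lap1, at the highest level, measured 657, 744 and 684 FPKM in overexpression libraries 1 to 3, against 679.8, 662 and 707 FPKM in control libraries 1 to 3. The groups interleaved fully (log2 fold change 0.02 ± 0.06, SE, n = 3 each; limma adjusted p = 0.868), with a 95% interval of the fold from 0.920 to 1.12. S-Lap5, at the lowest level, averaged 52.5 ± 3.62 FPKM in overexpressing flies and 45.6 ± 1.62 FPKM in control flies without overlap (adjusted p = 0.104), and it passed with rescaling to a common total (adjusted p = 0.0415, range over 14 alternatives 0.0415 to 0.264).

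Genes of the spermatid mitochondria gave 0 calls among 7 tested by limma, while 1 had an unadjusted p below 0.05 and voom called 0. The median log2 fold change was 0.023. The gene loopin-1, a relative of the S-Laps whose product lies in the mitochondrial derivatives, had the highest level. It measured 549.8, 621 and 573 FPKM in overexpression libraries 1 to 3, against 554, 538 and 578.5 FPKM in control libraries 1 to 3. The groups overlapped, with overexpression replicate 2 highest (log2 fold change 0.06 ± 0.06, SE, n = 3 each; limma adjusted p = 0.618).

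The gene fzo encodes the mitofusin that joins spermatid mitochondria, and averaged 20.2 ± 0.947 FPKM in overexpressing flies and 18.5 ± 1.47 FPKM in control flies (SD, n = 3 each; limma adjusted p = 0.366). For tomboy40, a testis form of the import pore Tom40, the averages were 62.6 ± 2.45 FPKM in overexpressing flies and 56.5 ± 3.33 FPKM in control flies (adjusted p = 0.190). For tomboy20, a testis form of the import receptor Tom20, they were 95.1 ± 6.56 FPKM in overexpressing flies and 93.6 ± 6.88 FPKM in control flies (adjusted p = 0.896). The gene bb8, a testis form of glutamate dehydrogenase, averaged 92.5 ± 4.62 FPKM in overexpressing flies and 91.0 ± 4.68 FPKM in control flies (adjusted p = 0.868). The products of dj and djl, neighbours on 3R between 7059315 and 7061919, are proteins of the sperm tail. Their averages were 176.9 ± 9.52 FPKM for dj and 74.5 ± 3.87 FPKM for djl in overexpressing flies, and 181.2 ± 11.8 FPKM for dj and 73.6 ± 4.19 FPKM for djl in control flies, with adjusted p of 0.823 and 0.909. Levels of all 7 genes overlapped between the groups.

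Among the genes of meiosis, tubulin and late spermatids, 0 of 6 passed by limma, while 1 had an unadjusted p below 0.05 and voom called 1 higher. That gene was betaTub85D, the beta-tubulin of the meiotic spindle and the sperm axoneme. It measured 333, 383 and 376 FPKM in overexpression libraries 1 to 3, against 302, 307 and 323 FPKM in control libraries 1 to 3. The groups did not overlap, with overexpression replicate 1 closest to the controls. The log2 fold change was 0.23 ± 0.07 (SE, n = 3 each; limma adjusted p = 0.0775). It passed with voom (adjusted p = 0.0306), rescaling to a common total (0.0355), quantile normalization (0.0191) and without overexpression replicate 1 (0.0281), in a range over 14 alternatives from 0.0191 to 0.226.

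The Cdc25 phosphatase gene twe, which drives entry into meiosis, averaged 14.5 ± 0.313 FPKM in overexpressing flies and 12.6 ± 1.66 FPKM in control flies (SD, n = 3 each; limma adjusted p = 0.219). Control replicate 3 of twe lay within the overexpression libraries. The testis genes ocn and janB are neighbours on 3R that arose by duplication with janA. The level of ocn, the highest of this role, was 442, 495 and 457 FPKM in overexpression libraries 1 to 3, against 482, 453 and 504 FPKM in control libraries 1 to 3, with full overlap (log2 fold change -0.05 ± 0.06, adjusted p = 0.729). For janB the averages were 138.8 ± 4.89 FPKM in overexpressing flies and 148.8 ± 16.2 FPKM in control flies (adjusted p = 0.550), and 107 bp of its 569 bp of exons overlap exons of janA on the same strand. The gene hale, one of the few transcribed after meiosis, averaged 35.7 ± 2.84 FPKM in overexpressing flies and 36.2 ± 2.13 FPKM in control flies (adjusted p = 0.908). For sowah the averages were 10.4 ± 0.5004 FPKM in overexpressing flies and 9.93 ± 0.703 FPKM in control flies (adjusted p = 0.652).

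Of the other 7 Mst genes, Mst27D rose and 0 fell by limma, and voom made the same counts. The median log2 fold change was 0.12. Mst33A, of the same HMG-box family as the protamines, had the highest level, at 78.8, 87.2 and 84.7 FPKM in overexpression libraries 1 to 3, against 75.4, 68.3 and 80.1 FPKM in control libraries 1 to 3. Control replicate 3 lay between the overexpression libraries (limma adjusted p = 0.211). Mst89B averaged 28.8 ± 1.604 FPKM in overexpressing flies and 26.4 ± 0.706 FPKM in control flies without overlap (SD, n = 3 each; adjusted p = 0.276). Mst36Fa, Mst36Fb, Mst84B and Mst85C had overlapping groups, with adjusted p from 0.236 to 0.766. The neighbours Mst36Fa and Mst36Fb had fold changes of opposite sign, 0.16 ± 0.07 and -0.05 ± 0.07 on the log2 scale, and neither passed. With libraries scaled to the same total, Mst36Fb turned positive.

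Ratios between roles within a library do not change when all values of that library are multiplied by 1 factor. Quantile normalization can change them and was not applied here. The summed FPKM of the chromatin genes divided by that of the CGP tail genes was 0.217, 0.226 and 0.223 in overexpression libraries 1 to 3, against 0.181, 0.176 and 0.189 in control libraries 1 to 3. For the S-Laps the same ratio was 0.928, 0.989 and 0.938 in overexpression libraries 1 to 3, against 0.848, 0.872 and 0.864 in control libraries 1 to 3. For the mitochondrial genes it was 0.406, 0.433 and 0.418 in overexpression libraries 1 to 3, against 0.380, 0.382 and 0.378 in control libraries 1 to 3. Each of these ratios, and those of the meiosis and tubulin genes and of the other Mst genes, was higher in all overexpression libraries than in any control library. The ratio of the Mst57D genes to the tail genes went the other way, at 1.54, 1.46 and 1.46 in overexpression libraries 1 to 3, against 1.72, 1.76 and 1.82 in control libraries 1 to 3. All of these ratios divide by the same tail sum, so they are not separate results. That sum lay between 2563 and 2678 FPKM in overexpression libraries and between 2671 and 2938 FPKM in control libraries. The ratios were formed after values were seen and carry no test.

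The shortest members had the lowest median fold change. The 6 tested members of at most 500 bp, namely Mst57Da, Mst57Db, Mst57Dc, Mst84Db, Mst84Dc and Mst84Dd, had a median log2 fold change of -0.14, with all 6 below 0. The 12 members over 2000 bp had a median of 0.067, with 0 below 0. Over all tested genes with a known length, the medians were -0.023 for the 784 genes of at most 500 bp and -0.0026 for the 5103 genes over 2000 bp. The chromatin genes ProtA and ProtB, of 683 and 679 bp, were above 0, and Mst98Ca and Mst98Cb, of 1319 and 1066 bp, were near 0. The part of length in these differences was not tested.

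**Figure D3:**
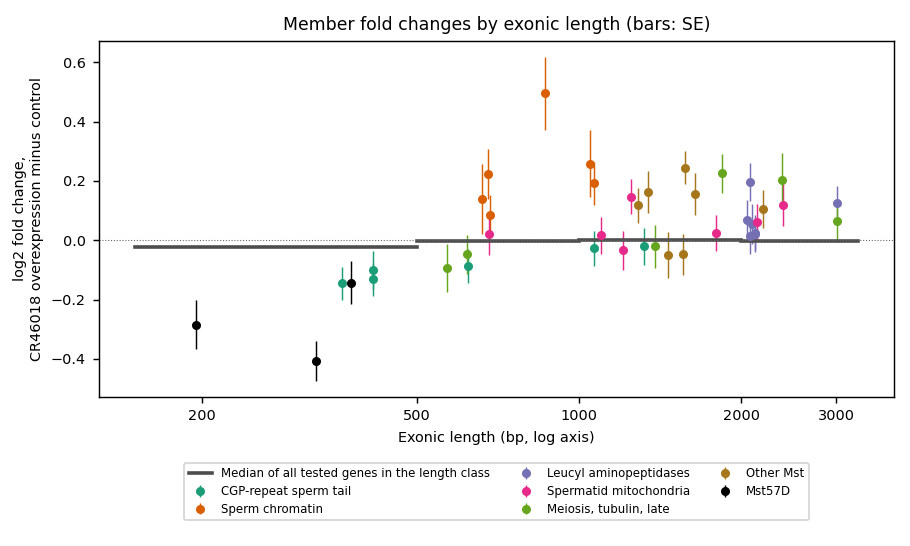
Log2 fold change, overexpression minus control, of the 42 tested members against exonic length on a log axis, with SE bars, coloured by role; grey lines give the median of all tested genes in each length class. The 6 members of at most 500 bp lie below 0, with a median of -0.14, while the grey lines stay close to 0.

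Within each group the testis members varied together. Of the 39 tested members outside Mst57D, 28 were highest in overexpression replicate 2 and 29 were lowest in overexpression replicate 1. In the control group, 31 were highest in replicate 3 and 31 were lowest in replicate 2. Over all tested genes, overexpression replicate 2 was the highest of its group in 34.1% of genes and control replicate 3 in 33.9%. The sum of the members outside Mst57D was 7770, 8458 and 8150 FPKM in overexpression libraries 1 to 3, against 8135, 7670 and 8445 FPKM in control libraries 1 to 3. The 2 groups overlapped fully in this sum, and the spread within a group was wider than the difference between the groups. These members share their libraries, so their common order is not independent support.

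**Figure D4:**
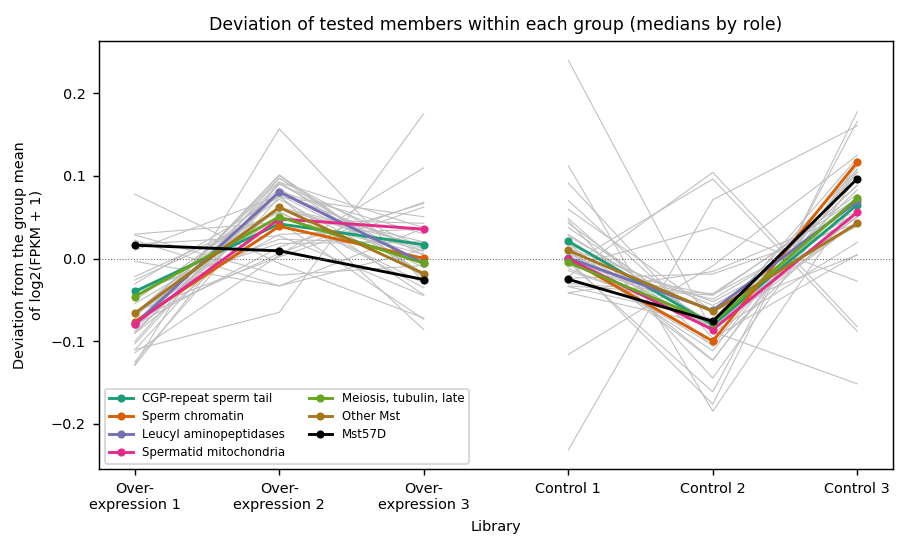
Deviation of each tested member from its own group mean of log2(FPKM + 1) in each library; grey lines are members outside Mst57D and coloured lines are medians by role. The testis roles peak together in overexpression replicate 2 and control replicate 3 and dip in overexpression replicate 1 and control replicate 2, and the Mst57D median does not follow them in the overexpression group.

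The coefficient of variation between libraries had a median of 5.09% in overexpressing flies and 5.86% in control flies over the 40 members averaging 5 FPKM or more. Over all 9028 genes at that level or above it was 5.91% in overexpressing flies and 5.80% in control flies. By position, 0 of the 46 members lie on the X chromosome, which holds 15.5% of the tested genes with an annotated position, and 21 lie on 3R, which holds 24.8%. Several of the 3R members are neighbours, so they do not count as separate draws.

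Other genes of spermatogenesis, in 7 lists outside the members, gave 0 calls among 55 tested by limma, against 8.76% of all tested genes. Of these 55, 11 had an unadjusted p below 0.05, against 23.5% of all tested genes. By voom 3 were higher and 0 lower, against 3.82% and 8.09% of all genes it tested. The median log2 fold change of the 55 genes was 0.091, against -0.0024 over all tested genes, and 45 of 55 values were above 0. With libraries scaled to the same total it was 0.177, against 0.082 over all tested genes. The medians were 0.057 for the meiotic arrest genes, which switch on the spermatocyte program, 0.047 for early germ cell genes and 0.17 for genes of meiosis and translation control. They were 0.12 for transition proteins and other sperm chromatin genes, 0.062 for the comet and cup genes transcribed after meiosis, 0.11 for Y-linked fertility genes and 0.13 for individualization genes. Of 5 markers of somatic testis cells, 4 were tested, with a median of 0.12 and 0 called by limma, 0 at an unadjusted p under 0.05 and 0 by voom. All 4 values were above 0. The marker left out by the filter, tj, went the other way. It measured 0.585, 0.429 and 0.495 FPKM in overexpression libraries 1 to 3, against 0.834, 0.599 and 0.736 FPKM in control libraries 1 to 3.

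Markers of other tissues were also examined. Of 4 tested fat body markers 1 fell and 0 rose, and of 6 tested muscle markers 4 fell and 0 rose, against 6.31% lower and 2.45% higher of all tested genes. An unadjusted p below 0.05 was found for 3 fat body and 5 muscle markers, against 23.5% of all tested genes. By voom, 3 fat body and 5 muscle markers were lower and 0 higher, against 8.09% lower and 3.82% higher of all genes it tested. The lipoprotein gene apolpp averaged 31.7 ± 11.1 FPKM in overexpressing flies and 106.4 ± 20.5 FPKM in control flies (SD, n = 3 each; limma adjusted p = 0.00478). The myosin light chain gene Mlc2 averaged 437.6 ± 35.9 FPKM in overexpressing flies and 710.0 ± 91.2 FPKM in control flies (adjusted p = 0.00646), and the tropomyosin gene Tm2 120.1 ± 8.33 FPKM in overexpressing flies and 166.3 ± 23.3 FPKM in control flies (adjusted p = 0.0333). The call of Tm2 was lost without the filter (0.0598), with the same total in every library (0.0638), without control replicates 1 and 2 (0.1 and 0.103) and without overexpression replicates 1, 2 and 3 (0.0932, 0.0606 and 0.0815). Those of apolpp and Mlc2 held under all 14 alternatives. The other muscle genes that fell were Act88F and Mhc, named after their values were seen. The median log2 fold change was -1.02 for the fat body markers and -0.44 for the muscle markers. The other tested fat body markers did not pass by limma. Their values were -0.36 for Apoltp (adjusted p = 0.0550), -1.29 for Fbp2 (0.262) and -0.74 for Lsp1beta (0.0809). Fbp2 measured 10.1, 2.14 and 0.425 FPKM in control libraries 1 to 3, and its groups overlapped. Lsp1beta averaged 0.619 FPKM in overexpressing flies and 1.71 FPKM in control flies. Summed muscle markers lay between 1389 and 1544 FPKM in overexpression libraries and between 1704 and 2253 FPKM in control libraries, and summed fat body markers between 36.2 and 62.4 FPKM in overexpression libraries and between 120.0 and 169.8 FPKM in control libraries. Most of the fat body sum was apolpp, at 129.8 of 169.8 FPKM in control library 1. Of 8 ovary and chorion markers, 6 were below 1 FPKM in all libraries and 2 were tested, with 0 calls by limma, 0 at an unadjusted p under 0.05 and 0 by voom. The part of these shifts in the small differences of the members was not tested.

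**Figure D5:**
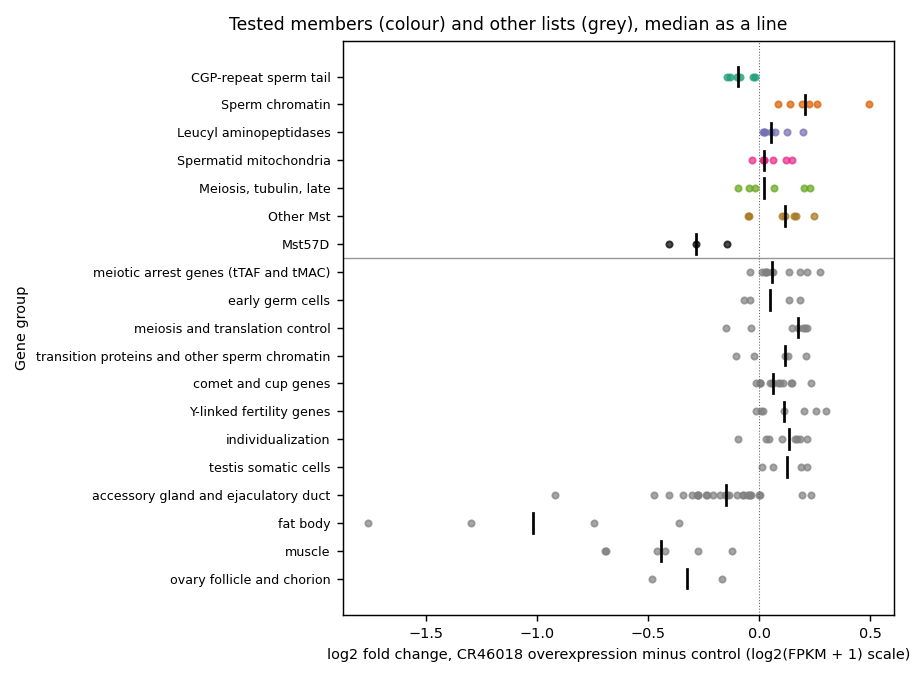
Log2 fold change, overexpression minus control, of each tested gene, with members by role in colour and the other lists in grey; vertical ticks are medians. The testis roles and germ line lists lie within about 0.5 of 0. The fat body and muscle markers lie lower, with medians of -1.02 over 4 genes and -0.44 over 6 genes. Among the fat body markers only apolpp passed by limma.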

How the data were processed

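Poly(A) RNA was sequenced in paired ends, aligned with HISAT2 2.0.5 and counted with featureCounts 1.5.0-p3, per the labels' protocols; the genome build was dm6, per the submitters' processing notes. Which annotation release was used, and how strand and multiply aligned reads were handled, is not stated. The values are FPKM as the authors deposited them, with 1 column per library; their scaling is not stated.

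Symbols were found for 17252 of 17558 identifiers. Positions and exonic lengths are from the Ensembl annotation of the same assembly. FPKM multiplied by length gave whole reads in all libraries, within 0.01 reads, for 97.6% of expressed genes whose length was known, and for all 46 members. Replicates differed by more than sampling noise, with chi-square values of 6.57 to 9.73 per degree of freedom over genes averaging 50 reads or more, and each counted once.

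Genes averaging 1 FPKM or more entered a two-sided test by limma 3.58.1 (R 4.3.3; lmFit, then eBayes with a trend) on log2(FPKM + 1), a pseudocount of 1, with no covariate and Benjamini-Hochberg adjustment. In data simulated for this comparison over 11717 genes, 77.5% of genes raised 1.5-fold, 90% of those raised 2-fold and 70.3% of those lowered to 0.667 were recovered, and 9 of 11521 unchanged genes were called. Changes smaller than 1.5-fold were not simulated, so recovery of differences as small as those of most members is not known. Each simulated gene took the median scatter of genes at a similar level, so differences in scatter between genes were left out. Alternatives were pseudocounts of 0.1 and 5, no filter, a filter at 5 FPKM, libraries scaled to the same total, quantile normalization, voom on recovered reads, leaving out each library and a replicate block.

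The members, roles and lists were chosen with earlier results of these data known. Every member is accounted for by role. Values in every library are given for members past the threshold and for the highest member of each role; betaTub85D, Mst57Db and Mst84Da were added after their values were seen. Of each other list, up to 2 genes with the smallest p past the threshold are named. Beyond these, Acp54A1, Act88F, Mhc, Apoltp, Fbp2, Lsp1beta and tj were named after their values were seen. No sequences were used here.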

Additional observations from a re-analysis of the deposited data

How the results depend on the processing

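The number of members called higher, 2 as reported, was 1 with a pseudocount of 0.1, 1 without the filter, 1 with a mean FPKM of at least 5, 4 with FPKM rescaled to a common total, 4 with quantile normalization and from 0 to 3 in fits that left out 1 library. The number called lower, 1 as reported, was 2 with voom on recovered reads. The median log2 fold change of the members was 0.13 with both rescaling and quantile normalization, against 0.082 and 0.016 over all tested genes. Over all tested genes, 300 were higher and 773 lower as reported; with rescaling 826 were higher and 484 lower, and in fits without 1 library 137 to 283 were higher and 427 to 629 lower. Same-numbered libraries did not deviate together (correlations of 0.0456, -0.0761 and 0.0264 for numbers 1 to 3). Libraries with different numbers gave correlations from -0.109 to 0.0839. With 3 libraries per group, these correlations cannot decide whether same-numbered libraries were handled together. With the replicate number as a block, 0 members were called higher and 1 lower, and over all genes 219 higher and 616 lower.

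Small differences that did not pass changed sign. With rescaling they became positive, at 0.073 for hale, 0.0016 for janB, 0.049 for ocn, 0.062 for dj, 0.046 for Mst36Fb, 0.035 for Mst85C, 0.0086 for Mst87F, 0.075 for Mst98Ca and 0.069 for Mst98Cb. FPKM totals ran from 646862 to 668227 in overexpression libraries and from 694593 to 708815 in control libraries. Rescaling therefore raised the fold change of every tested gene. The median over all tested genes was 0.082 with it, against -0.0024 as deposited. With quantile normalization that median was 0.016. The values that changed sign were then 0.0043 for hale, 0.080 for ocn, 0.060 for dj, 0.0071 for Mst84Db, 0.0021 for Mst84Dd, 0.067 for Mst87F, 0.10 for Mst98Ca and 0.065 for Mst98Cb. Without 1 library the value ran from -0.026 to 0.064 for S-Lap1, from -0.029 to 0.058 for S-Lap4, from -0.0040 to 0.049 for S-Lap7, from -0.075 to 0.037 for hale, from -0.020 to 0.061 for bb8, from -0.081 to 0.012 for dj, from -0.028 to 0.057 for djl, from -0.030 to 0.075 for tomboy20, from -0.11 to 0.0091 for Mst36Fb, from -0.090 to 0.0030 for Mst85C, from -0.060 to 0.025 for Mst98Ca and from -0.057 to 0.012 for Mst98Cb. Causes of the other sign changes were not tested. Too few reads fell on Mst84Da, Mst77Y-13, Mst77Y-8Psi and Mst77Y-9 to compare the groups, at 0 to 6 reads per group. The reason for these low counts was not tested.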
